A study of Sus scrofa with 4 samples.

Results

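The genes described here encode oxidative phosphorylation: the subunits of respiratory complexes I to IV and of ATP synthase (complex V). They were chosen by symbol, from the prefixes shared by the subunits of each complex, together with the genes encoded by mitochondrial DNA. The rule found 86 of the 21280 features in the pig (Sus scrofa) count tables. Of these, 64 were nuclear subunits, 9 were assembly factors that share a prefix (NDUFAF1 to NDUFAF8 and SDHAF2, which help build complexes and are not part of them), and 13 were mitochondrially encoded genes. The nuclear subunits comprised 30 of complex I, 3 of complex II, 5 of complex III, 15 of complex IV and 11 of complex V. NDUFA4 and its paralogue NDUFA4L2 carry a complex I prefix and were counted here with complex IV, where NDUFA4 is known to sit.

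The libraries came from pig knee meniscus, the fibrocartilage pad of the joint. Its outer red zone holds blood vessels, and its inner white zone is generally held to lack them. There were 4 droplet single-cell libraries: the red and the white zone of the lateral meniscus, and the red and the white zone of the medial meniscus, each deposited as 1 library. Cells were freed with pronase followed by Collagenase P, after the synovium had been trimmed off. The labels give no treatment, strain, age or number of animals, so the 2 libraries of a zone may or may not come from 1 animal. P-values do not measure the spread between animals. They rest on counting noise and on a spread between these 4 libraries that the test pools over genes.

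Complexes I to IV pass electrons from NADH and succinate to oxygen and pump protons across the inner mitochondrial membrane, and ATP synthase uses the gradient to make ATP. Mitochondrial DNA supplies core subunits of complexes I, III, IV and V, and the nucleus supplies the rest and all of complex II. Several complex IV subunits exist as paralogues that are used in different tissues or at different oxygen levels. Meniscal cells and chondrocytes in tissue without vessels are known to rely largely on glycolysis.

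Between 5701 and 7807 cells per library were kept, 27693 of 27782 barcodes in all, with 9612276 to 14902274 UMIs per library and a median of 1473 to 1617 UMIs per cell. Pairs of libraries shared 10 to 20 barcodes. The barcodes above 20% mitochondrial UMIs were all in red zone libraries, 15 in lateral red and 21 in medial red. Cells were put into classes by fixed marker lists, and endothelial-like, mural-like and myeloid-like cells made up 7.76% to 14.1% of a red zone library each and 0.615% to 1.82% of a white zone library. The lateral and medial white libraries thus also held vessel-type cells, 77 and 142 endothelial-like and 92 and 108 mural-like cells. Their origin was not tested. Fibrochondrocyte-like cells made up 22.6% and 14.5% of the lateral and medial red libraries and 46.3% and 66.8% of the white ones. Between 22.1% and 40.9% of the cells of a library stayed without a class. In the sums over all cells, class makeup therefore moves with zone, and a smaller number of cells of a type and less RNA per cell cannot be told apart there.

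The 64 nuclear subunits together took 0.561% of UMIs in lateral red, 0.671% in lateral white, 0.639% in medial red and 0.775% in medial white. The white library was higher in both menisci. In these sums the difference was carried by NDUFA4L2 and COX4I2, a pair singled out after their values were seen. Without the pair, the shares were 0.516%, 0.510%, 0.613% and 0.606% in the same order. As a sum, the remaining 62 subunits thus differed more between menisci than between zones. Single members of that sum went both ways: in each meniscus COX7C was higher and COX4I1 lower in the white library. The sums use plain library totals, without the scaling between libraries of the tests below. The 13 mitochondrial genes took 2.45% in lateral red, 1.85% in lateral white, 2.85% in medial red and 2.10% in medial white, lower in the white library of each meniscus. Mitochondrial UMIs outnumbered nuclear subunit UMIs 4.36 and 4.46 times in the lateral and medial red libraries, and 2.75 and 2.71 times in the white ones. These shares are given as descriptions and were not tested, since an exact permutation test of 2 libraries against 2 cannot give a two-sided p below 0.33.

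**Figure D1:**
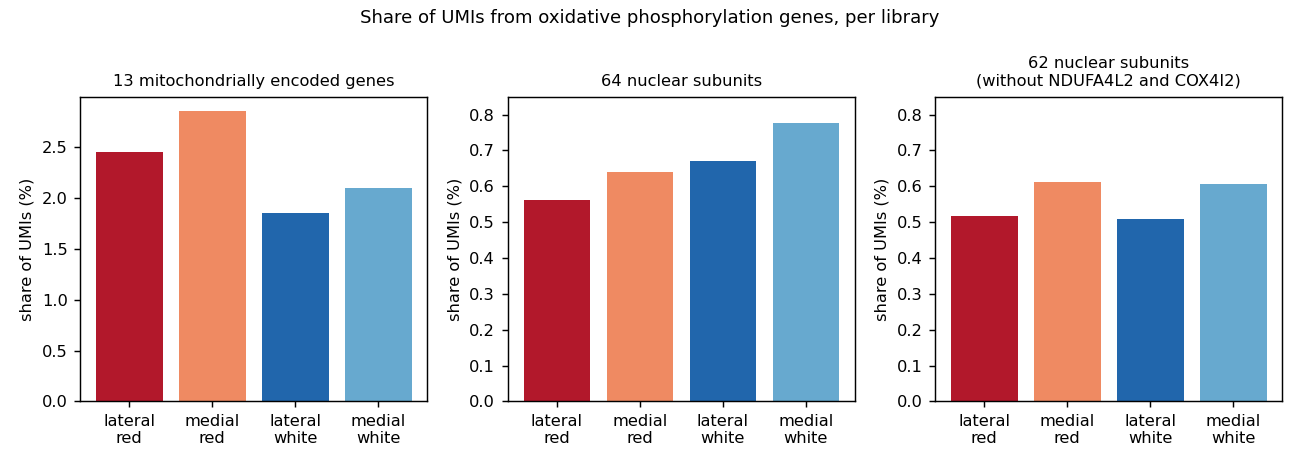
Share of UMIs (percent, y axis) in each of the 4 libraries (x axis) from the 13 mitochondrially encoded genes (left), the 64 nuclear subunits (middle) and the 62 nuclear subunits without NDUFA4L2 and COX4I2 (right), 1 bar per library. The nuclear share is 0.671% and 0.775% in the white libraries against 0.561% and 0.639% in the red ones, and in the right panel red and white of a meniscus are nearly level.

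Summed over the members of each complex, nuclear levels in CPM (UMIs of a gene per 1000000 UMIs of the library) differed little between zones except in complex IV. These sums are not whole complexes, since subunits not found by symbol, such as SDHA of complex II, are left out. Complex I summed to 1514 CPM in lateral red, 1532 in lateral white, 1830 in medial red and 1739 in medial white. ATP synthase summed to 1176, 1140, 1378 and 1416 CPM. Complex IV summed to 2541, 3718, 2792 and 4223 CPM, and its 13 members other than NDUFA4L2 and COX4I2 to 2090, 2107, 2537 and 2531 CPM. Complex II summed to 158, 131, 147 and 146 CPM, with a gap of little size between the zones, and complex III to 185 to 239 CPM, with overlapping zones.

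White was compared with red zone on UMI sums per library with edgeR's quasi-likelihood test, meniscus as a second term, and a call means an adjusted p (Benjamini-Hochberg, all 12481 genes tested) below 0.05. Of 85 members tested, 31 were higher in the white zone and 1 was lower, and 53 did not pass. Over all genes, 39.3% were called, 17.4% higher and 21.8% lower, against 36.5% of members higher. Most of these calls depended on the scaling between libraries: with TMM factors the median log2 difference of all genes was -0.00, and on plain library totals it was -0.50. The members' median log2 difference was 0.43 with TMM and -0.06 without it. Without TMM, 8 members were higher and 6 lower, against 7.33% and 41.6% of all genes. Leaving out the lateral red library left 8 members called and leaving out medial red left 11.

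The 8 members higher under both scalings were NDUFA4L2, COX4I2, COX7C, ND1, ND3, ND4L, ND5 and ATP8, 9.41% of members against 7.33% of all genes. COX1 was the 1 member lower under both, against 21.8% of all genes. By group under both scalings, 3 of 63 tested nuclear subunits were higher, all 3 of complex IV, and of the 13 mitochondrial genes 5 were higher and 1 lower. With TMM alone, 11 of 29 tested complex I subunits, 1 of 3 of complex II, 1 of 5 of complex III, 7 of 15 of complex IV, 4 of 11 of complex V and 1 of 9 assembly factors were higher, and no nuclear member was lower. NDUFS8, a core complex I subunit, was too low to be tested. NDUFB5, UQCR11 and SDHA, which the files list by identifier only and the RefSeq table names, were outside the rule; NDUFB5 was at 97.3, 69.3, 88.2 and 74.9 CPM in lateral red and white and medial red and white.

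**Figure D2:**
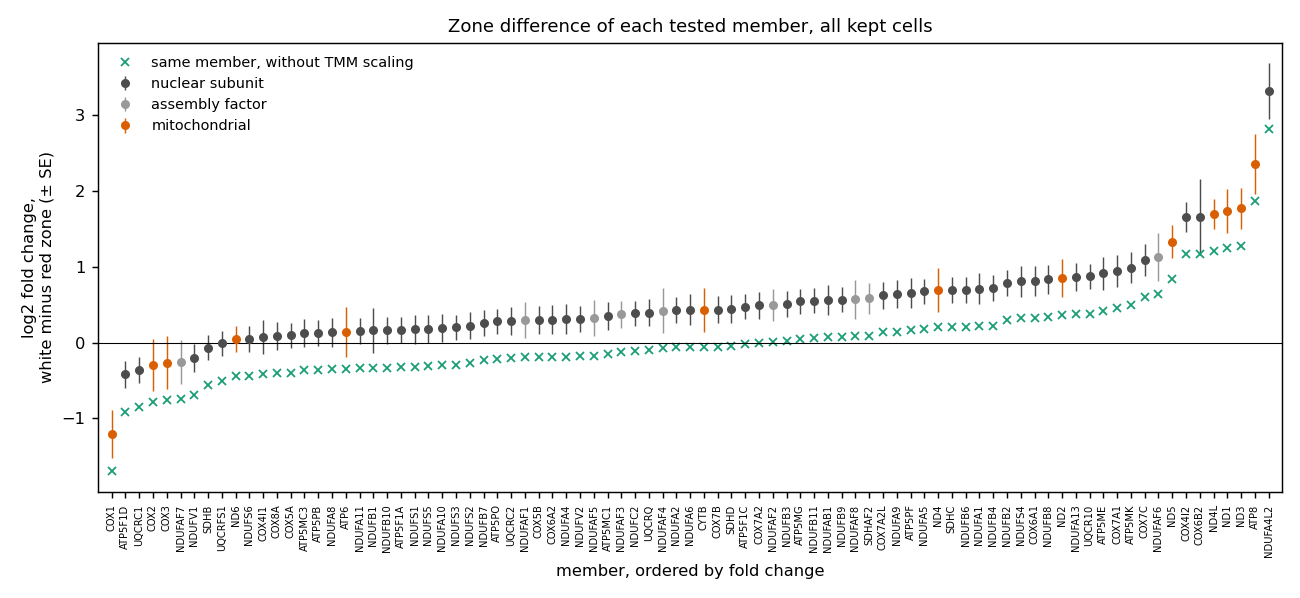
White minus red zone log2 difference (y axis) of each tested member (x axis, ordered by it) from the sums over all cells of 4 libraries, as points with standard errors coloured by nuclear subunit, assembly factor or mitochondrial gene, and as crosses without TMM. NDUFA4L2 is highest at 3.32 and COX1 lowest at -1.21, and every cross lies below its point.

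NDUFA4L2 (ENSSSCG00000027621, chromosome 5, 22540482 to 22548418 in RefSeq's Sscrofa11.1 annotation) is a paralogue of the complex IV subunit NDUFA4 and is known as a target of hypoxia-inducible factor. Its level was 287 CPM in lateral red, 1263 in lateral white, 120 in medial red and 1371 in medial white, with no overlap of the zones. The log2 difference was 3.32 ± 0.37 (SE; adjusted p = 0.000512), and 2.82 without TMM. A UMI was seen in 22.9%, 78.6%, 13.2% and 82.3% of cells, and in 19.5%, 67.9%, 9.57% and 71.8% after each cell was thinned to 1000 UMIs, which left out 1381, 1244, 1577 and 944 shallower cells. NDUFA4 itself, at 138, 141, 196 and 149 CPM, had a log2 difference of 0.31 that did not pass and that turned negative without TMM. NDUFA4L2 supplied 67.6% of the pair's UMIs in lateral red (exact 95% interval 66.2% to 69.0%), 90.0% in lateral white (89.6% to 90.4%), 37.9% in medial red (36.4% to 39.5%) and 90.2% in medial white (89.8% to 90.6%). The white zone libraries were close to each other and the red ones were not. These intervals cover counting error only, and 3′ tags of 2 genes need not be captured equally, so the shares compare libraries and not absolute amounts.

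COX4I2 (ENSSSCG00000038384) is an isoform of complex IV subunit 4, known for its oxygen-dependent expression. Its level was 164 CPM in lateral red, 348 in lateral white, 135 in medial red and 321 in medial white, again with no overlap. The log2 difference was 1.66 ± 0.19 (adjusted p = 0.000616), and 1.16 without TMM. COX4I1, the widely expressed isoform, was at 549, 468, 645 and 423 CPM, and its log2 difference of 0.07 turned to -0.42 without TMM. COX4I2 therefore took 23.0%, 42.6%, 17.4% and 43.1% of the pair's UMIs in lateral red and white and medial red and white.

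COX7C (chromosome 2, 94345436 to 94347709), a small complex IV subunit, was at 330, 467, 403 and 655 CPM, and its log2 difference was 1.09 ± 0.21 (adjusted p = 0.00601), and 0.60 without TMM (adjusted p = 0.0439). COX7A1, the muscle isoform of subunit 7a, was at 39.5, 41.3, 39.7 and 71.2 CPM, so only the medial pair was far apart. It was called with TMM (log2 difference 0.95 ± 0.21, adjusted p = 0.0102), and not without (adjusted p = 0.0968). ATP5MK, a small ATP synthase subunit, was at 97.7, 108, 109 and 196 CPM (log2 difference 0.99 ± 0.21, adjusted p = 0.00808), and also was not called without TMM. COX7A2, the widely expressed partner of COX7A1, was at 146, 146, 198 and 198 CPM, equal within each meniscus. COX6A1 was at 174, 185, 191 and 281 CPM and its paralogue COX6A2 at 24.6, 23.8, 28.0 and 22.3 CPM. COX6A2 took 12.4%, 11.4%, 12.8% and 7.35% of that pair's UMIs in lateral red and white and medial red and white. COX8A was at 162, 132, 227 and 159 CPM in the same order.

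The mitochondrial genes did not move together. COX1, the catalytic core of complex IV, was at 4323 CPM in lateral red, 1409 in lateral white, 5146 in medial red and 1502 in medial white. The zones did not overlap, and the log2 difference was -1.21 ± 0.32 (adjusted p = 0.0198), or -1.10 with an adjusted p of 0.101 without the medial red library. COX2 and COX3, the other mitochondrial core subunits of complex IV, had log2 differences of -0.30 ± 0.34 and -0.27 ± 0.35 that did not pass. COX2 was at 5474, 2940, 5982 and 3734 CPM and COX3 at 5548, 3434, 6998 and 3959 CPM, so red was above white in both.

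Subunits of complex I went the other way. ND3 was at 394, 749, 425 and 1314 CPM in lateral red and white and medial red and white (log2 difference 1.77 ± 0.27, adjusted p = 0.0019). ND1 was at 796, 1473, 661 and 2010 CPM (1.74 ± 0.29, adjusted p = 0.00313). ND4L was at 91.3, 179, 86.7 and 236 CPM (1.70 ± 0.19, adjusted p = 0.000565), and ND5 at 335, 575, 305 and 569 CPM (1.33 ± 0.21, adjusted p = 0.00251). These 4 did not overlap between zones. ND2 was higher with TMM only (log2 difference 0.85 ± 0.25), ND4 did not pass (0.69 ± 0.29, adjusted p = 0.0979), and ND6, the member read from the other strand, had a difference of 0.05.

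ATP8, a small ATP synthase subunit, was at 13.2, 25.2, 5.40 and 39.7 CPM (log2 difference 2.36 ± 0.40, adjusted p = 0.00324). ATP6 and CYTB, the proton channel of ATP synthase and the mitochondrial subunit of complex III, had log2 differences of 0.14 and 0.43 that did not pass and turned negative without TMM. ATP8 overlaps ATP6 and ND4L overlaps ND4 on the mitochondrial genome, so the split of tags within these pairs is uncertain. ND5 and ND6 also overlap, from 14739 to 14755, but are read from opposite strands.

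As shares of mitochondrial UMIs, which do not depend on library scaling, COX1 took 17.7% in lateral red, 7.63% in lateral white, 18.1% in medial red and 7.16% in medial white. COX1, COX2 and COX3, grouped after the values were seen, took 62.7%, 42.1%, 63.6% and 43.8%. The ND genes together took 15.8%, 32.1%, 14.7% and 33.0%, and the zones did not overlap for either sum. ND1 alone went from 3.25% and 2.32% in the red libraries to 7.98% and 9.57% in the white ones.

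The 6 classes with enough cells were then compared, each against the mean of the others, on 19 sums of a class in a library with library as a term. A class needed at least 5 UMIs from at least 3 of its markers, and at least 2 times the UMIs of any other list. Near these limits lay 48.0% of the 1272 chondrocyte-like cells and 6.24% to 17.6% of the cells of the other 5 classes. In endothelial-like, mural-like and myeloid-like cells the median marker UMIs of every other list were 0, while chondrocyte-like cells held a median of 14 and 23 fibrochondrocyte marker UMIs. Chondrocyte-like sums came from white libraries only and fibroblast-like sums from red ones only, so zone and class cannot be told apart between those 2. Each met the other classes only in libraries of its own zone. Whether its differences hold in the other zone was not tested.

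In fibrochondrocyte-like cells, whose markers are those of meniscal matrix, 31 of 82 members tested were higher than the mean of the other classes and 0 lower (30.7% of 10138 genes were called, 23.1% higher and 7.63% lower). Under both scalings 11 were higher, against 13.2% of genes higher and 7.63% lower. Without TMM 11 were higher and 12 lower, but the matching shares of all genes are not given here, so these counts cannot be weighed. The members' median log2 difference was 0.35 with TMM and -0.03 without it, against 0.11 and -0.28 for all genes. NDUFA4L2 led with a log2 difference of 4.01 ± 0.20, followed by COX4I2 at 2.51 ± 0.18, CYTB at 1.31 ± 0.16 and ND4L at 1.20 ± 0.15. NDUFA4L2 stood at 763, 1340, 385 and 1441 CPM in these cells of lateral red and white and medial red and white. In chondrocyte-like cells, 22 members were higher and 2 lower (25.1% of genes called, 15.4% higher and 9.72% lower). Under both scalings 6 were higher and 2 lower, against 8.66% and 9.72% of genes. Without TMM 6 were higher and 8 lower, again without the matching shares of all genes. The members' median log2 difference was 0.39 with TMM and -0.15 without it, against -0.03 and -0.50 for all genes. NDUFA4L2 was higher by 3.95 ± 0.30 and COX4I2 by 2.60 ± 0.27 on the log2 scale, and COX1 had a difference of -1.60 ± 0.31.

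In endothelial-like cells, which line vessels, 4 members were higher and 28 lower (37.3% of genes called, 18.3% higher and 19% lower). Under both scalings 4 were higher and 11 lower, against 18.3% and 11.4% of genes. COX4I2 (log2 difference -5.31 ± 0.36) and NDUFA4L2 (-4.87 ± 0.38) were the lowest, and COX1 was higher (0.80 ± 0.18). NDUFA4L2 was at 1.41, 9.26, 7.28 and 13.8 CPM in these cells of lateral red and white and medial red and white. These levels rest on 1, 1, 8 and 4 UMIs, so the fitted log2 difference of NDUFA4L2 rests on few counts. The levels of lateral red and lateral white lie below those of 3 counts, 4.23 and 27.8 CPM. A UMI of NDUFA4L2 was seen in 0.222%, 1.30%, 1.33% and 2.82% of endothelial-like cells, with median depths of 1188 to 1670 UMIs. The source of these few UMIs was not tested.

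In mural-like cells, the smooth muscle and pericyte-type cells around vessels, 4 members were higher and 22 lower (31.4% of genes called, 17.4% higher and 14% lower). Under both scalings 4 were higher and 7 lower, against 17.4% and 5.65% of genes. COX4I2 was higher by 2.24 ± 0.19 on the log2 scale and NDUFB1, an accessory subunit of complex I, by 1.12 ± 0.18. NDUFA4 (-1.18 ± 0.19) and CYTB (-1.17 ± 0.19) were the lowest of the members named by the rule. COX4I2 stood at 269, 519, 337 and 469 CPM in mural-like cells of lateral red and white and medial red and white, above the 2.82, 5.46 and 3.45 CPM of endothelial-like cells of lateral red, medial red and medial white. Endothelial-like cells of lateral white held 0 UMIs of COX4I2, which allows a level of up to 27.8 CPM at 3 counts. The other 3 values rest on 2, 6 and 1 UMIs, so the fitted log2 difference of COX4I2 in endothelial-like cells depends on the prior count. A UMI of NDUFA4L2 was seen in 22.4%, 44.6%, 19.7% and 58.3% of mural-like cells, with median depths of 1421, 964, 1576 and 1054 UMIs. Thinned to 1000 UMIs, the shares were 15.3% of 609 cells, 40.9% of 44, 11.4% of 647 and 61.8% of 55.

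In myeloid-like cells, 12 members were higher and 15 lower (43.7% of genes called, 22% higher and 21.7% lower). Under both scalings 12 were higher and 11 lower, against 21.8% and 19.9% of genes. All 12 higher members were nuclear subunits. UQCRFS1, the Rieske iron-sulfur protein of complex III, was higher by 1.13 ± 0.18 on the log2 scale, NDUFB10 of complex I by 1.12 ± 0.18, SDHB, the iron-sulfur subunit of complex II, by 0.97 ± 0.18 and NDUFA9 of complex I by 0.97 ± 0.27. The lower members included 8 mitochondrial genes, with ND6 at -1.14 ± 0.22 and ND1 at -0.95 ± 0.22, and COX4I2 at -3.45 ± 0.36. In fibroblast-like cells 2 were higher and 1 lower (16.7% of genes called, 13.3% higher and 3.47% lower), the same numbers under both scalings (12.1% and 2.98% of genes), NDUFA4L2 being lower at -1.53 ± 0.37.

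**Figure D3:**
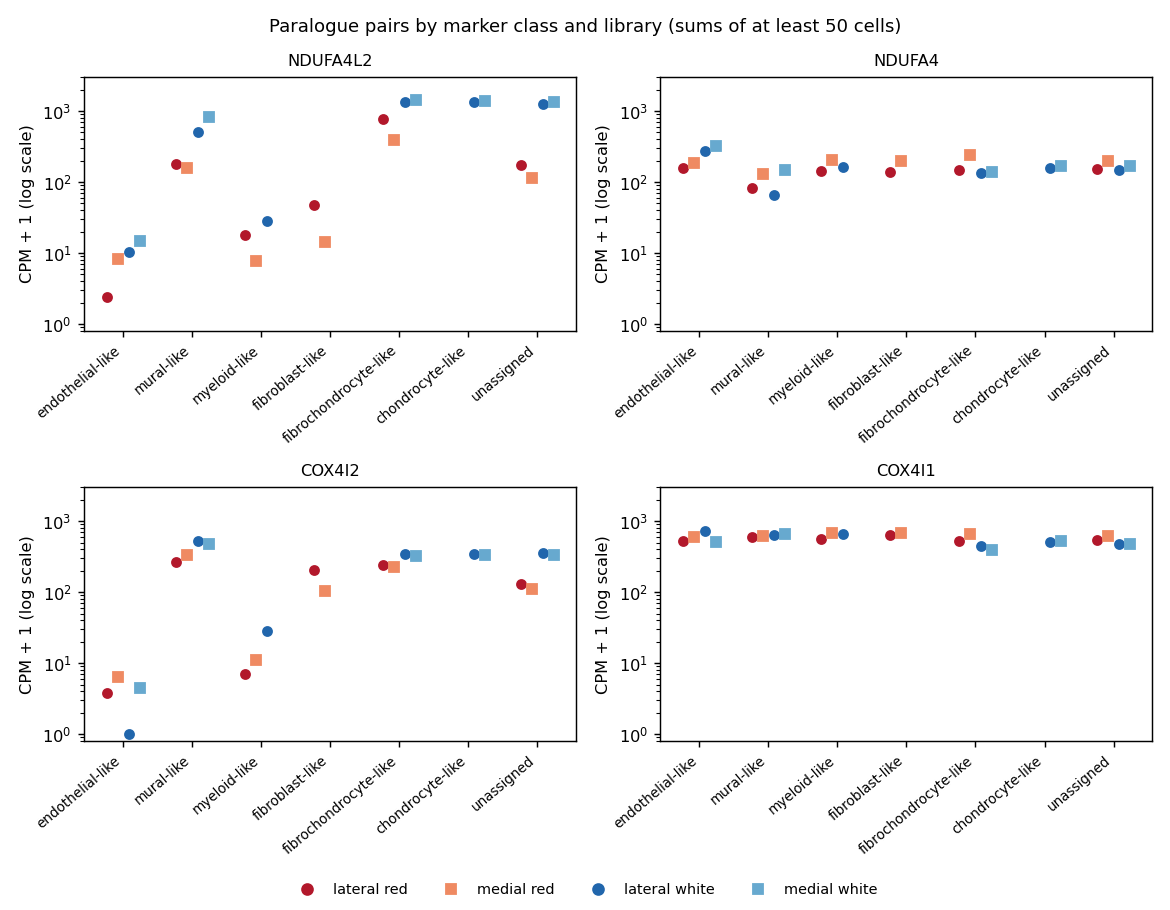
Level of NDUFA4L2, NDUFA4, COX4I2 and COX4I1 (CPM + 1, log scale, y axis) by class (x axis), 1 point per library with at least 50 cells of the class, unassigned cells included. NDUFA4L2 is 1.41 to 13.8 CPM in endothelial-like cells (1 to 8 UMIs per library) and 385 to 1441 CPM in fibrochondrocyte-like cells.

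The zone difference was then tested inside the classes with at least 50 cells in every library. In mural-like cells (805, 92, 792 and 108 cells in lateral red and white and medial red and white), 4 of 77 tested members were higher in the white zone and 0 lower (6.04% of 7185 genes called, 2.17% higher and 3.87% lower). NDUFA4L2 was at 176, 511, 156 and 821 CPM, with a log2 difference of 1.92 ± 0.26 (adjusted p = 2.72e-11). Endothelial-like cells of the same libraries held 1.41, 9.26, 7.28 and 13.8 CPM, on 1, 1, 8 and 4 UMIs. ND6 was at 217, 622, 244 and 614 CPM (1.36 ± 0.25). These 2 also passed DESeq2 (1.03% of genes called) and every fit without 1 library. COX7A1 and ND3 were the others, with log2 differences of 1.64 ± 0.45 and 1.13 ± 0.26.

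In fibrochondrocyte-like cells (1286, 3415, 984 and 5216 cells), a class added after the cell numbers were seen, 6 of 84 tested members were higher in the white zone and 3 lower (17.1% of 10015 genes called, 7.29% higher and 9.86% lower). Under both scalings 3 were higher (NDUFA4L2, ATP8 and ND3) and 3 lower (COX1, ATP5F1D and NDUFA8), against 4.35% and 9.86% of genes. NDUFA4L2 had a log2 difference of 1.60 ± 0.32 (adjusted p = 0.00579) and COX1 of -1.14 ± 0.29 (adjusted p = 0.0233). COX1 stood at 3158, 1323, 3649 and 1282 CPM in these cells. Without the medial red library 0 members were called, and without lateral red 1.

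In endothelial-like cells (450, 77, 528 and 142 cells), 9 of 74 tested members were higher and 0 lower (12.1% of 5654 genes called, 5.34% higher and 6.76% lower). ND3 was at 310, 963, 311 and 1165 CPM, with a log2 difference of 1.60 ± 0.27 (adjusted p = 3.13e-07), and was the 1 member still called by DESeq2 (1.27% of genes called) and without each library. Fibrochondrocyte-like cells held 535, 770, 523 and 1332 CPM of ND3, and the part of free RNA in the endothelial-like value was not tested. ATP5ME of ATP synthase, at 71.9, 185, 60.1 and 303 CPM, differed by 1.78 ± 0.28, and UQCR10 of complex III by 1.61 ± 0.36. COX1 took 28.5%, 26.3%, 25.8% and 26.6% of mitochondrial UMIs in endothelial-like cells of lateral red and white and medial red and white, 23.9%, 26.2%, 22.6% and 22.3% in mural-like cells, and 11.9%, 7.02%, 12.6% and 6.21% in fibrochondrocyte-like cells. The zones separated in fibrochondrocyte-like cells and overlapped in the other 2 classes, and the difference between classes was not tested. Among fibrochondrocyte-like cells with 2% to 4% mitochondrial UMIs, a range set after the data were seen, COX1 took 12.2%, 7.69%, 12.6% and 6.46%. Myeloid-like cells were not compared by zone, since medial white held 48 of them.

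**Figure D4:**
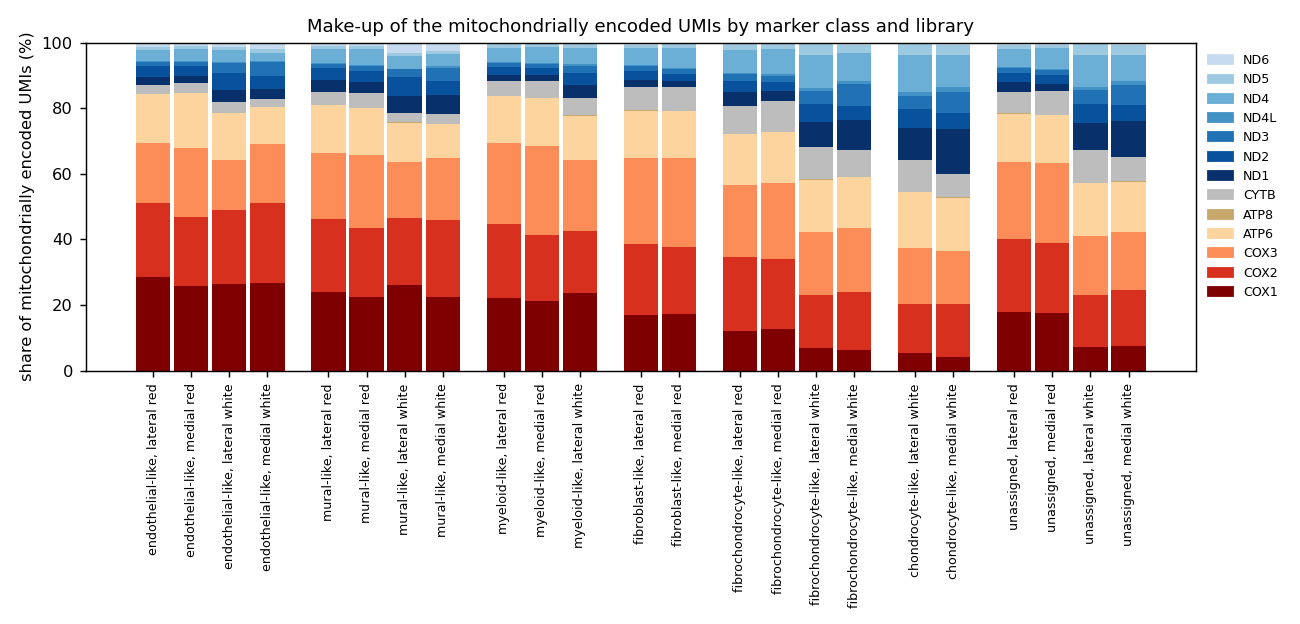
Share of mitochondrially encoded UMIs (percent, y axis, stacked to 100) taken by each of the 13 genes, 1 bar per class and library with at least 50 cells, unassigned cells included. The COX1 segment is 11.9% and 12.6% in fibrochondrocyte-like cells of the red libraries and 7.02% and 6.21% in the white ones.

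**Figure D5:**
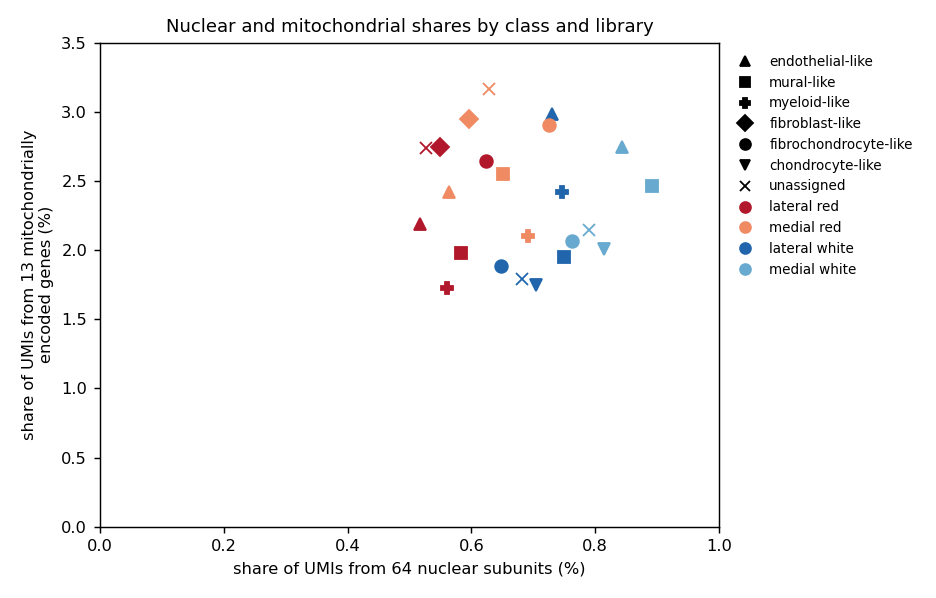
Share of UMIs from the 13 mitochondrially encoded genes (percent, y axis) against that from the 64 nuclear subunits (percent, x axis), 1 point per class (shape) and library (colour), unassigned cells included. Fibrochondrocyte-like cells of the white libraries sit at 1.89% and 2.06% mitochondrial UMIs, below the 2.65% and 2.90% of the red ones.

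Between the medial and lateral menisci, with zone as the other term, 0 members were called by edgeR (0.024% of 12481 genes called, 0% higher and 0.024% lower) and 0 by DESeq2 (0.256% of genes). At an unadjusted edgeR p below 0.05 there were 3 of 85 members, a smaller share than the 6.67% of all genes. NDUFB7 and COX5B had positive log2 differences of 0.50 ± 0.17 and 0.45 ± 0.18, and COX6B2 had -1.14 ± 0.49. COX6B2 rested on only 9, 28, 5 and 15 UMIs in lateral red and white and medial red and white.

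The other genes of the pathway were read from fixed lists in the zone comparison over all cells, where 17.4% of all genes were higher and 21.8% lower, and 7.33% and 21.8% under both scalings. Of 22 genes of the hypoxia and glycolysis list, 12 were higher in the white zone and 1 lower, 10 and 1 under both scalings. CA9, a carbonic anhydrase induced by hypoxia, had a log2 difference of 3.44 ± 0.29, BNIP3 of 2.31 ± 0.21, and ENO1, a glycolytic enzyme, of 2.06 ± 0.26. Of 28 further assembly factors 5 were higher and 0 lower, a share near that of all genes, and 1 of them (COX11, 1.09 ± 0.19) was higher under both scalings. Of 17 citrate cycle genes 1 was higher and 2 lower, and the 2 lower ones, IDH2 (-0.76 ± 0.19) and DLST (-0.73 ± 0.21), were called under both scalings. Of 22 genes of mitochondrial gene expression and biogenesis 4 were higher and 1 lower, 3 and 1 under both scalings. Of 8 carriers and uncoupling proteins 3 were higher and 1 lower, 0 and 1 under both scalings, the lower one being UCP2, an uncoupling protein of the inner membrane (-2.43 ± 0.33). Of 6 electron carriers and related subunits outside the prefixes 2 were higher and 0 lower. Cytochrome c (CYCS) was 1 of these (0.79 ± 0.17) and was not called without TMM.

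Inside the classes, the hypoxia and glycolysis list gave smaller counts in the zone comparison, from fewer cells and fewer genes tested. The counts therefore do not compare the size of the difference. The list's median log2 difference was 0.62 in fibrochondrocyte-like, 0.58 in endothelial-like and 0.38 in mural-like cells. All genes had medians of 0.01, 0.003 and -0.03 there. Over all cells the list's median was 0.75, against -0.005 for all genes. In mural-like cells 2 of 16 genes were higher in the white zone (2.17% of all genes higher), with and without TMM. In fibrochondrocyte-like cells 8 of 20 were higher and 0 lower (7.29% of all genes higher and 9.86% lower), and without TMM 4 were higher and 1 lower. In endothelial-like cells 0 of 16 were higher and 1 lower (5.34% of all genes higher and 6.76% lower), and without TMM 3 were higher and 1 lower. The shares of all genes without TMM are not given here for the classes, so those counts cannot be weighed. A count of 0 in a small class does not show that the zones were equal.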

How the data were processed

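The deposited files hold UMI counts per gene and barcode of 4 10x libraries, made by the authors with Cell Ranger 6.1.2 and the Sscrofa11.1 genome, per the submitters' processing notes; whether other filters were applied is not given in the sources used here. Barcodes with at least 500 UMIs, 200 genes and at most 20% mitochondrial UMIs were kept. Doublets were not removed: Scrublet called 105, 0, 1 and 0 barcodes in lateral red and white and medial red and white, so it did not work, and an alternative removed the highest scores. Counts were summed per library, or per class and library (at least 50 cells), and tested with edgeR 4.0.16 (TMM, filterByExpr, quasi-likelihood; DESeq2 1.42.0 as an alternative, in R 4.3.3), with 1 residual degree of freedom for zone. The spread used for a gene is partly pooled over all genes, so a very small adjusted p does not rest on that gene's 4 libraries alone. The standard error is the log2 difference over the root of F. The tests were run on simulated counts with changes balanced in direction, so that check did not cover the shift in scaling between zones.

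Of 113 markers in 15 lists, 101 were in the files. Members and lists were chosen with earlier results of these data known. The class limits (5 UMIs, 3 markers, 2 times any other list) were chosen among 3 sets (the others asked for 4 times any other list, 1 of them with 10 UMIs) after the cell numbers under each, and member levels under the chosen set, were seen. They stand in for the planned exclusion of cells with markers of more than 1 list. Calls under both scalings, the fibrochondrocyte-like zone test and the pair left out of the nuclear share were also chosen after the data were seen. Named members have a mean of at least 20 CPM, a call, the same direction in every pair of libraries and the 10 largest differences per direction. Over all cells, levels or zone differences of mitochondrial genes and of paralogue pairs found by symbol are given whatever their result. For the classes they are given in part. Lateral libraries are replicate 1 and medial ones replicate 2, in accession order. Gene positions come from RefSeq's Sscrofa11.1 annotation, matched for 62 members.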

Additional observations from a re-analysis of the deposited data

Results flagged for a closer look

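For 4 members the white minus red difference in log2 CPM over all cells had opposite signs in the 2 menisci, and the difference between menisci was not tested. NDUFA4 differed by 0.03 (lateral) and -0.395 (medial). CYTB differed by 0.15 and -0.264, and ND4 by 0.42 and -0.0242. COX7A2 differed by 0.000276 and -0.000176.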

How the results depend on the processing

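The count of members called in the zone comparison over all cells was 32, and 14 without TMM. Leaving out each library in turn gave 8 to 39 members over all cells, 2 to 13 in endothelial-like, 2 to 7 in mural-like and 0 to 9 in fibrochondrocyte-like cells. It gave 13 to 32 members called in endothelial-like against other classes, 13 to 21 for mural-like (of 26 called), 9 to 27 for myeloid-like, 11 to 18 for chondrocyte-like (of 24), 11 to 28 for fibrochondrocyte-like (of 31) and 1 to 3 for fibroblast-like. In the endothelial-like zone test 15 members were called without TMM, 4 without a filter, 1 by DESeq2 and 3 with the stricter marker rule. DESeq2 called 2 members in mural-like, 5 in fibrochondrocyte-like cells and 6 in fibroblast-like against other classes, where 5 were called with no mitochondrial limit. Without TMM 20, 15 and 14 members were called in endothelial-like, mural-like and chondrocyte-like against other classes, and the stricter rule gave 13 in chondrocyte-like. The medial red mitochondrial share as a median over cells was 2.53%. The white zone nuclear shares without NDUFA4L2 and COX4I2 were 0.510% and 0.606%. The other 112 settings kept those counts within 1.5 times, or the share within 1 SD. The share of all genes called under each setting is not given with these counts. Whether members gained or lost calls more than other genes therefore cannot be read from them. Of the values of single members, 1053 kept their direction and side of the threshold, 220 lost the call and 3 gained it. The labels carry no replicate numbers, so no block by number was fitted; the zone fit pairs red and white by meniscus, and without that term 31 members were called over all cells. The zone fits that leave out a library also drop the meniscus term, since no residual degree of freedom is left with it.

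Directions that turned over: without TMM, the zone difference over all cells was -0.45 for ND6, -0.42 for COX4I1, -0.41 for COX8A, -0.35 for ATP6, -0.19 for COX6A2, -0.18 for NDUFA4, -0.059 for CYTB and -0.0005 for COX7A2 on the log2 scale. Over the fits without 1 library it ran from -0.14 to 0.22 for ND6, from -0.058 to 0.21 for COX4I1 and from -0.13 to 0.31 for COX8A, with negative values without lateral red for all 3, without lateral white for COX4I1 (-0.058) and without medial white for ND6 (-0.14) and COX8A (-0.0022). The endothelial-like zone difference of COX7A1 ran from -0.14, without medial white, to 1.76. Against other classes and without TMM, COX4I1 in endothelial-like cells was 0.0010 and ND2 in chondrocyte-like cells was -0.020. The cause was not tested.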
